A study of Mus musculus with 20 samples.

Results

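A set of 10 genes of the translation machinery were followed through the knockdown of the initiation factor subunit Eif3m in mouse liver: Eef1a1, Eef1b2, Eef1d, Eef1g, Eef2, Eef2k, Eif5a, Pabpc1, Pabpc4 and Tpt1. They were chosen by name as elongation factors, poly(A)-binding proteins and a further mRNA of the terminal oligopyrimidine (TOP) class. All 10 of the 10 are among the 38784 gene symbols of the counts table, and all 10 passed the low-count filter in every comparison. The livers came from 10 FVB/N mice aged 6 to 8 weeks. All of them, controls included, received siRNA in lipid nanoparticles by tail vein at 0.5 mg/kg, with 1 injection in 5 days. At day 13 there were 2 mice with siRNA against Eif3m and 2 with a scrambled luciferase control siRNA. At day 9 there were 3 mice with Eif3m siRNA and 3 with the same control. From each liver 1 RNA-seq library and 1 library of ribosome footprints (Ribo-seq, the mRNA pieces that ribosomes protect from nuclease) were made, which gives 20 libraries in 8 groups. The tissue is whole ground liver, so fewer cells of a type and less RNA per cell cannot be told apart. All groups share 1 strain by the labels, and the siRNA was given into the blood with no promoter or Cre that would limit it to a cell type.

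Elongation adds amino acids to the growing chain in a cycle. Eef1a1 carries each aminoacyl-tRNA to the ribosome as a complex with GTP, and Eef1b2, Eef1d and Eef1g form the exchange complex that recharges it with GTP. Eef2 moves the ribosome to the next codon, Eef2k is the kinase that phosphorylates and inhibits Eef2, and Eif5a helps ribosomes past stretches such as consecutive prolines and in termination. Pabpc1 and Pabpc4 bind the poly(A) tail in the cytoplasm and contact the initiation factor eIF4G at the cap, and Tpt1 is a small abundant protein tied to growth. Except for Eef2k and Eif5a, these mRNAs are commonly listed with the TOP class, whose 5′ end starts with a C and a run of C and T and whose translation responds to the kinase mTOR.

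That class is defined by its first letters. For the members with a single annotated start, the sequence around the longest run of C and T near that start is shown. RefSeq (GRCm38.p6) start sites with flanking sequence were at hand for 7 of the 10 members and not for Eef1d, Eef1g and Pabpc1. Each line gives 30 bases, 5′ to 3′ on the gene's strand, around the longest run made only of C and T within 50 bases on either side of the start, with that run in capitals.
Eef1a1, chr9:78481710-78481739, minus strand: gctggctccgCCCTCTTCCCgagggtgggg
Eef2, chr10:81176634-81176663, plus strand: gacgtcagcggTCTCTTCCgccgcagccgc
Tpt1, chr14:75845276-75845305, plus strand: cggtgacgtagccgagcgtgCCCTCTatat
Eef1b2, chr1:63176850-63176879, plus strand: ttgcgtccgagcgCTTTCgttcaactccgg
Pabpc4, chr4:123282866-123282895, plus strand: aaaaacacaaaagCCTCaaaaaccttaaaa
The run of Eef1a1 has 10 letters and begins at -5, counted from the start as +1 with no position 0. A run at least that long within the same distance was found in 18.1% of 32841 RefSeq promoters. The Eef2 run has 8 letters and begins at 15, and 35.7% of promoters hold one as long. For Tpt1 the run has 6 letters and begins at 41 (68.1% of promoters), for Eef1b2 it has 5 and begins at 33 (86.5%) and for Pabpc4 it has 4 and begins at -32 (96.9%), against a median of 7 over all promoters. Of the 5 runs that of Eef1a1 spans the annotated start and the other 4 do not. The other 4 printed lines do not contain the annotated start either, so they do not show the first letters of mRNAs begun there. Whether any of the 5 runs begins an mRNA in liver was not tested. Only the gene's strand was searched, runs do not overlap one another, and a RefSeq start need not be the start used in liver.

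The knockdown was present in every treated liver. Eif3m RNA was 20.3 and 15.3 CPM (counts scaled to library size) with Eif3m siRNA at day 13, against 241 and 340 CPM in controls. At day 9 Eif3m RNA was 8.27, 7.26 and 7.67 CPM with Eif3m siRNA, against 75.8, 73.8 and 74.2 CPM in controls. RNA libraries held 4964912 to 26401320 counts at day 13 and 27366965 to 39016524 at day 9, and footprint libraries held 1635290 to 6519799 at day 13 and 4502229 to 7689829 at day 9. The footprint kit was the same on both days. The RNA kit was NeoPrep at day 13 and KAPA mRNA capture at day 9, so kit and day cannot be told apart in RNA, and day 13 and day 9 animals carry different series names in the labels. Control RNA of Eef1d, Eef2 and Eef2k was lower at day 13 than at day 9 by 7.18, 4.72 and 4.71 times, while the other 7 members stayed under 4-fold. Hepatocyte markers were abundant in all groups (6 of 6 genes detected), and their summed footprints were 111574 to 142888 CPM with Eif3m siRNA against 231097 to 235101 CPM in controls at day 13, and 100161 to 124182 against 158570 to 194180 CPM at day 9. Of the 6 genes only Alb and Ttr passed the test in day 13 footprints, and the median log2 change of the list was -0.43. In day 13 RNA, the 7 Kupffer cell markers summed to 68.4 to 78.5 CPM with Eif3m siRNA against 200 to 254 CPM in controls. In day 9 RNA they summed to 198 to 231 against 297 to 351 CPM. Of the 7 markers, 5 fell in RNA at day 13 and 4 at day 9. Their summed footprints were 206 to 248 against 386 to 434 CPM at day 13, with 4 of 7 lower by the test. At day 9 the sums overlapped, at 379 to 442 against 425 to 517 CPM, with 3 of 7 lower (median log2 change -0.22). In RNA at day 13 the 3 erythroid markers also fell (3 of 3, median log2 change -2.13), with sums of 77.2 to 85.4 CPM with Eif3m siRNA against 204 to 680 CPM in controls. So did 4 of 6 sinusoidal endothelial markers (median -0.72) and 3 of 7 stellate cell and fibroblast markers (median -0.68). In day 13 footprints 1 of 3 erythroid markers fell (median -1.84) and 2 of 7 stellate cell and fibroblast markers (median -0.12). There 0 of 6 endothelial markers were called (median -0.002). The part of these shifts in the members' values was not tested.

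RNA of the members was mostly higher after Eif3m knockdown, and the kinase gene Eef2k was lower. At day 13, 6 of the 10 members rose (Eef1a1, Eef1b2, Eef1g, Pabpc1, Pabpc4 and Tpt1), 1 fell (Eef2k) and 3 did not pass the test. Here a call means that the two-sided quasi-likelihood test of edgeR gave an adjusted p (Benjamini-Hochberg) under 0.05, and 6.09% of 16444 genes rose and 9.87% fell at that threshold. The median log2 change was 0.75 over the members and -0.17 over all genes. Under other scalings that median of all genes moved to between -0.17 and 0.00, and the share of higher among called genes, 38.2%, became 59.7% with library totals alone and 49.1% with DESeq2 size factors. All of the 7 members called at day 13 kept their direction and call under these scalings.

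Among the elongation factor 1 genes, Eef1b2 stood out at day 13. Eef1b2 had 347 and 339 CPM of RNA with Eif3m siRNA, against 101 and 107 CPM in controls, and rose by 1.72 on the log2 scale (SE 0.14, edgeR adjusted p = 3.81e-05), a 3.30-fold change. Both treated livers lay far above both controls, and the call held in all 16 alternatives. Eef1g had 203 and 227 CPM with Eif3m siRNA, against 149 and 99.8 CPM in controls (log2 change 0.79, SE 0.18, edgeR adjusted p = 0.0115). Eef1a1 had 9098 and 8794 CPM, against 6741 and 4286 CPM in controls (log2 change 0.70, SE 0.20, edgeR adjusted p = 0.0300). In both genes the groups were separate and the controls spread more widely than the treated livers. The Eef1g call was lost without Eif3m siRNA replicate 2 (edgeR adjusted p = 0.0692). That of Eef1a1 was lost without Eif3m siRNA replicate 1 (0.101), without replicate 2 (0.0842), without control replicate 2 (0.133) and with day 13 fitted alone (0.0733). Eef1d, the third exchange subunit, had 14.4 and 20.4 CPM with Eif3m siRNA, against 12.2 and 14.6 CPM in controls, and the groups overlapped (edgeR adjusted p = 0.235).

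Of the translocation pair, Eef2 RNA at day 13 was 360 and 543 CPM with Eif3m siRNA, against 510 and 223 CPM in controls. The controls alone spread over more than the difference, and the log2 change of 0.30 (SE 0.30) did not pass (edgeR adjusted p = 0.533). It passed without control replicate 1 (log2 change 1.01, edgeR adjusted p = 0.0101). Eef2k, the kinase that inhibits Eef2, had 0.999 and 0.751 CPM with Eif3m siRNA, against 3.97 and 2.90 CPM in controls, from 17 and 4 counts against 83.5 and 60 counts. Its log2 change was -1.89 (SE 0.34, edgeR adjusted p = 0.00356), with a call that was lost only with day 13 fitted alone (0.0634) among 16 alternatives. Eif5a had 185 and 151 CPM with Eif3m siRNA, against 165 and 101 CPM in controls, with overlapping groups (log2 change 0.34, SE 0.20, edgeR adjusted p = 0.275). Without control replicate 1 it passed (log2 change 0.73, edgeR adjusted p = 0.0113), so for both Eef2 and Eif5a that library decides the call.

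Both cytoplasmic poly(A)-binding genes rose. Pabpc4 RNA at day 13 was 31.3 and 39.4 CPM with Eif3m siRNA, against 10.5 and 12.2 CPM in controls (log2 change 1.62, SE 0.18, edgeR adjusted p = 0.000204). Pabpc1 RNA was 1487 and 1178 CPM with Eif3m siRNA, against 682 and 641 CPM in controls (log2 change 1.01, SE 0.16, edgeR adjusted p = 0.00150). Tpt1 RNA was 1821 and 1479 CPM, against 678 and 836 CPM in controls (log2 change 1.12, SE 0.17, edgeR adjusted p = 0.00107). For all 3 genes the lowest treated liver was above the highest control, and all 16 alternatives kept the call.

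**Figure D1:**
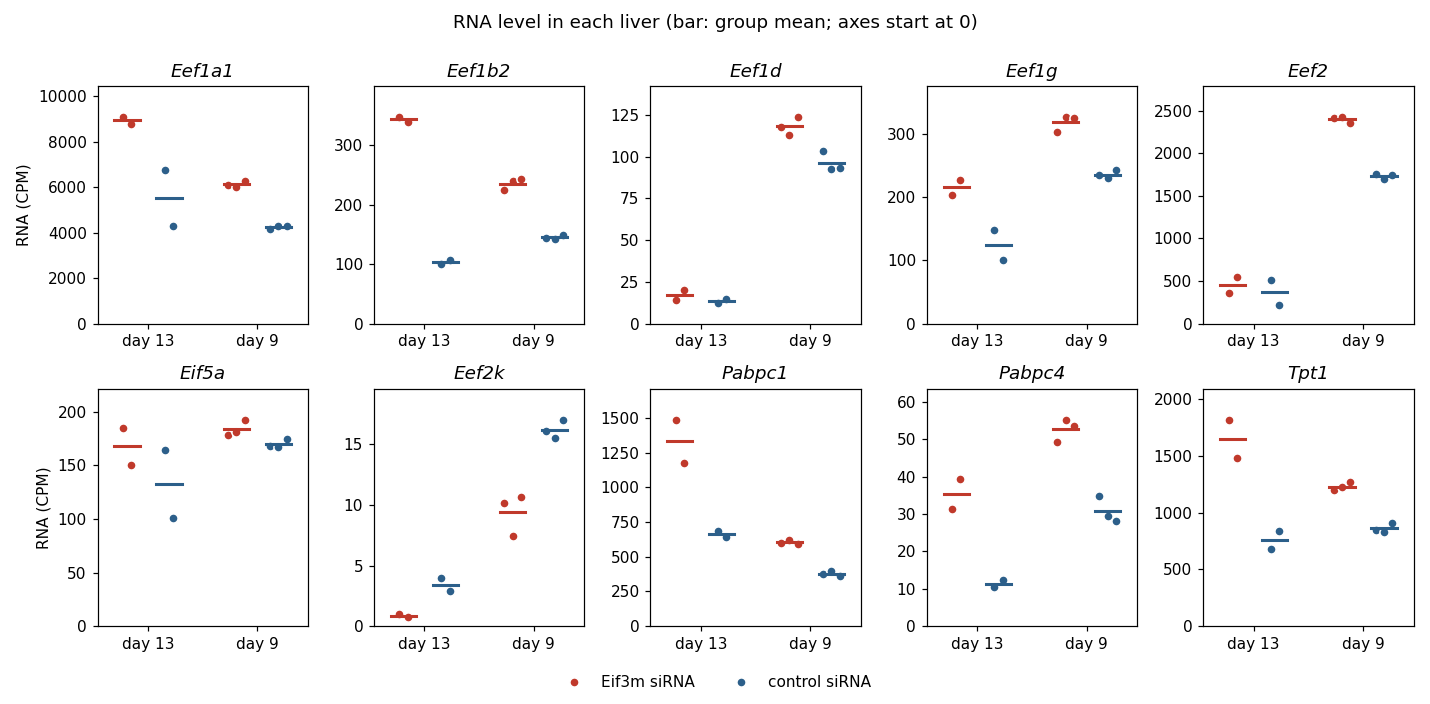
RNA level (CPM, vertical axes from 0) of each member in each liver, with Eif3m siRNA in red left of control siRNA in blue at day 13 and at day 9, and bars for group means. Eef1b2 at day 13 lies at 339 and 347 CPM with Eif3m siRNA and at 101 and 107 CPM in controls, while Eef1d, Eef2 and Eef2k sit lower at day 13 than at day 9 in both siRNA groups.

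At day 9, 4 of the 10 members rose (Eef1b2, Pabpc1, Pabpc4 and Tpt1), Eef2k fell, and 5 did not pass. Over all genes 2.48% rose and 3.19% fell. The median log2 change was 0.49 over the members and -0.00 over all genes, which moved to 0.12 with library totals alone. With that scaling 70.8% of called genes were higher instead of 43.7%, and 6 members rose in place of 4. In each of the 10 members all 3 Eif3m siRNA livers lay on 1 side of all 3 controls, 9 of them above and Eef2k below. The share of all genes with groups apart in this way was not worked out, and 5 of these 10 members did not pass the test.

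Eef1b2 RNA at day 9 was 224, 239 and 243 CPM with Eif3m siRNA, against 144, 142 and 149 CPM in controls (log2 change 0.70, SE 0.11, edgeR adjusted p = 0.00401). Of the called members at day 9 it alone kept its call in all 16 alternatives. Pabpc4 had 49.3, 55.3 and 53.4 CPM with Eif3m siRNA, against 34.8, 29.6 and 28.2 CPM in controls (log2 change 0.77, SE 0.14, edgeR adjusted p = 0.00695). Pabpc1 had 600, 620 and 588 CPM with Eif3m siRNA, against 378, 396 and 359 CPM in controls (log2 change 0.67, SE 0.13, edgeR adjusted p = 0.0109). Without control replicate 3 the edgeR adjusted p of Pabpc4 was 0.0600 and that of Pabpc1 was 0.0514, and without Eif3m siRNA replicate 2 that of Pabpc4 was 0.0509. Tpt1, with 1196, 1224 and 1268 CPM in Eif3m siRNA livers against 850, 833 and 909 CPM in controls, passed narrowly (log2 change 0.51, SE 0.14, edgeR adjusted p = 0.0466). Its call was lost without any 1 of the 6 day 9 RNA libraries, with edgeR adjusted p between 0.0989 (without Eif3m siRNA replicate 1) and 0.141 (without control replicate 1).

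Eef2k RNA at day 9 was 10.2, 7.45 and 10.6 CPM with Eif3m siRNA, against 16.0, 15.5 and 17.0 CPM in controls (log2 change -0.78, SE 0.18, edgeR adjusted p = 0.0220). Leaving out any 1 of 5 of the 6 day 9 libraries, all but Eif3m siRNA replicate 3, raised the edgeR adjusted p to between 0.0551 (without control replicate 1) and 0.106 (without Eif3m siRNA replicate 2). Eef1a1 was the nearest to the threshold of the members that did not pass, with 6121, 6005 and 6283 CPM in Eif3m siRNA livers against 4145, 4285 and 4310 CPM in controls (log2 change 0.53, SE 0.16, edgeR adjusted p = 0.0730). Here the livers of each group were tight and the groups far apart, and with day 9 fitted alone the edgeR adjusted p was 0.00189. That fit called 9 of the 10 members in place of 5, with 0.00421 for Eef1g, 0.0210 for Eef1d and 0.00304 for Eef2. Over all genes it called 3445 in place of 932, so the gain in calls was not limited to the members. The log2 changes of Eef1a1, Eef1g and Eef2 stayed at 0.53, 0.43 and 0.47 without day 13 control replicate 1 or replicate 2. Eif5a, at 179, 181 and 193 CPM against 168, 168 and 174 CPM in controls, did not pass in any alternative (log2 change 0.12, SE 0.16, edgeR adjusted p = 0.755).

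The RNA effect of the knockdown differed between the days in 1 member. The change of Eef1b2 was 1.72 at day 13 and 0.70 at day 9, and the difference of 1.02 (SE 0.18) had an edgeR adjusted p of 0.0252, with 1.23% of genes called in that test. Eef1b2 RNA was 343 ± 5.74 CPM with Eif3m siRNA and 104 ± 4.64 CPM in controls at day 13 (SD, n = 2 each), and 235 ± 10.1 CPM with Eif3m siRNA and 145 ± 3.63 CPM in controls at day 9 (SD, n = 3 each). The call was lost without day 9 Eif3m siRNA replicate 1 (edgeR adjusted p = 0.0733) or replicate 3 (0.0649), without day 9 control replicate 2 (0.0551) or replicate 3 (0.0516), and without day 13 Eif3m siRNA replicate 2 (0.0860). Pabpc4 followed with a difference of 0.85 (SE 0.22, edgeR adjusted p = 0.0824) and Tpt1 with 0.62 (SE 0.22, edgeR adjusted p = 0.163). DESeq2 called 4 members, adding Pabpc1, Pabpc4 and Tpt1 at 0.0462, 0.0111 and 0.00830. Without day 13 control replicate 2, edgeR called Pabpc4 (0.0203), Tpt1 (0.0402) and Eef2k (0.0415) beside Eef1b2. Since the RNA kit changed with the day, a difference between kits and one between days cannot be told apart here.

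Among genes of neighbouring roles, most did not pass in RNA outside the ribosomal protein list. Over all genes 6.09% rose and 9.87% fell in RNA at day 13, and 2.48% rose and 3.19% fell at day 9. Of 26 tested other genes of elongation, termination and factor modification, 5 rose and 2 fell in RNA at day 13 and 3 rose at day 9. They include the termination factors Etf1 (log2 change 0.78) and Gspt1 (0.67) and the diphthamide enzyme Dph5 (0.97), which helps build the modified histidine of Eef2, at day 13. The ribosome rescue GTPase Gtpbp2 rose by 1.52 at day 13 and 0.95 at day 9 on the log2 scale. Of 16 other poly(A)-related genes 3 rose on each day, among them Paip1, a Pabpc1 partner that stimulates translation (0.85 at day 13 and 0.53 at day 9). Of 19 other TOP mRNAs outside the ribosome, 9 rose at day 13 and 4 at day 9, with the RNA of the snoRNA host gene Gas5 at 2.81 and 1.40. Ribosomal protein genes rose in 62 of 77 cases at day 13 and in 24 of 77 at day 9, with median log2 changes of 1.09 and 0.46.

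Footprints of the exchange subunits rose on both days, narrowly for Eef1d at day 9, and those of Tpt1 and Pabpc4 rose at day 9. Those of Pabpc1 at day 13 were lower in both treated livers than in both controls without passing the test. At day 13, 4 of the 10 members rose in footprints (Eef1b2, Eef1d, Eef1g and Eif5a), 0 fell and 6 did not pass, where 6.12% of 12213 genes rose and 6.28% fell. The median log2 change was 0.49 over the members and 0.02 over all genes. Library totals alone moved that of all genes to 0.34, and gave a share of higher among called genes of 85.0% in place of 49.4%, with 5 members that rose. At day 9, 5 members rose (Eef1b2, Eef1d, Eef1g, Pabpc4 and Tpt1), Eef2k fell and 4 did not pass, where 6.84% of genes rose and 7.9% fell. There the median was 0.73 over the members and 0.02 over all genes, and library totals alone gave 0.25 for all genes, 83.5% higher among called genes in place of 46.4%, and 6 members that rose.

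The 3 exchange subunits rose in footprints on both days, though Eef1d at day 9 passed narrowly and not in DESeq2. Eef1g had 217 and 216 CPM of footprints with Eif3m siRNA at day 13, against 99.6 and 123 CPM in controls (log2 change 0.96, SE 0.18, edgeR adjusted p = 0.00118). At day 9 Eef1g had 112, 101 and 95.8 CPM with Eif3m siRNA, against 51.8, 50.8 and 71.0 CPM in controls (log2 change 0.83, SE 0.14, edgeR adjusted p = 0.000523). Every treated liver was above every control on both days, and no alternative ended either call. Eef1b2 had 248 and 223 CPM with Eif3m siRNA at day 13, against 74.1 and 140 CPM in controls (log2 change 1.14, SE 0.23, edgeR adjusted p = 0.00385). At day 9 Eef1b2 had 96.7, 84.5 and 87.9 CPM with Eif3m siRNA, against 48.4, 47.5 and 66.4 CPM in controls (log2 change 0.73, SE 0.18, edgeR adjusted p = 0.0132). The day 13 call of Eef1b2 was lost without control replicate 1 (edgeR adjusted p = 0.0541), and the day 9 call without Eif3m siRNA replicate 1 (0.0511), control replicate 1 (0.0601) or control replicate 2 (0.0662).

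The RNA of Eef1d did not pass on either day and its footprints did, while its footprint-to-RNA ratio did not pass on either day. With day 9 fitted alone its RNA passed (edgeR adjusted p = 0.0210) and its footprints did not (0.0687). Eef1d had 203 and 209 CPM of footprints with Eif3m siRNA at day 13, against 114 and 122 CPM in controls (log2 change 0.80, SE 0.16, edgeR adjusted p = 0.00210), and no alternative ended that call. At day 9 it had 110, 101 and 102 CPM with Eif3m siRNA, against 68.2, 82.8 and 89.4 CPM in controls. That smaller rise of 0.38 on the log2 scale (SE 0.12, edgeR adjusted p = 0.0455) was lost in 13 of 16 alternatives, DESeq2 (0.0652) among them. It was lost without any 1 footprint library other than day 9 control replicate 3, with edgeR adjusted p between 0.0546 (without day 9 Eif3m siRNA replicate 2) and 0.212 (without day 9 control replicate 1). Eef1a1, the carrier that these subunits recharge, had 2839 and 2338 CPM with Eif3m siRNA at day 13, against 1625 and 2263 CPM in controls (edgeR adjusted p = 0.551). At day 9 Eef1a1 had 1845, 1026 and 1297 CPM with Eif3m siRNA, against 660, 707 and 1216 CPM in controls (log2 change 0.69, SE 0.30, edgeR adjusted p = 0.171). Control replicate 3 overlapped the treated livers, and without it the log2 change was 1.02 (edgeR adjusted p = 0.00654).

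Eef2 footprints spread widely among replicates. At day 13 it had 1560 and 1479 CPM with Eif3m siRNA, against 888 and 1473 CPM in controls (log2 change 0.36, SE 0.48, edgeR adjusted p = 0.715). At day 9 it had 889, 431 and 540 CPM with Eif3m siRNA, against 204, 280 and 454 CPM in controls (log2 change 0.99, SE 0.40, edgeR adjusted p = 0.160). No alternative made it pass on either day. Eef2k fell in footprints at day 9, with 10.2, 6.52 and 7.91 CPM in Eif3m siRNA livers against 14.3, 17.6 and 18.6 CPM in controls (log2 change -1.05, SE 0.22, edgeR adjusted p = 0.00280). That call held in all 16 alternatives. At day 13 Eef2k footprints overlapped, with 13.7 and 6.75 CPM in Eif3m siRNA livers and 11.6 and 15.4 CPM in controls (log2 change -0.61, SE 0.35, edgeR adjusted p = 0.292), from 20 to 49.5 counts a library. Eif5a footprints rose at day 13, to 504 and 538 CPM with Eif3m siRNA against 358 and 346 CPM in controls (log2 change 0.57, SE 0.14, edgeR adjusted p = 0.0123), and did not pass at day 9, with 414, 442 and 447 CPM in Eif3m siRNA livers against 391, 393 and 451 CPM in controls (log2 change 0.08, SE 0.12, edgeR adjusted p = 0.708). The day 13 call of Eif5a was lost without Eif3m siRNA replicate 2 (edgeR adjusted p = 0.125), control replicate 1 (0.0740) or control replicate 2 (0.109).

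**Figure D2:**
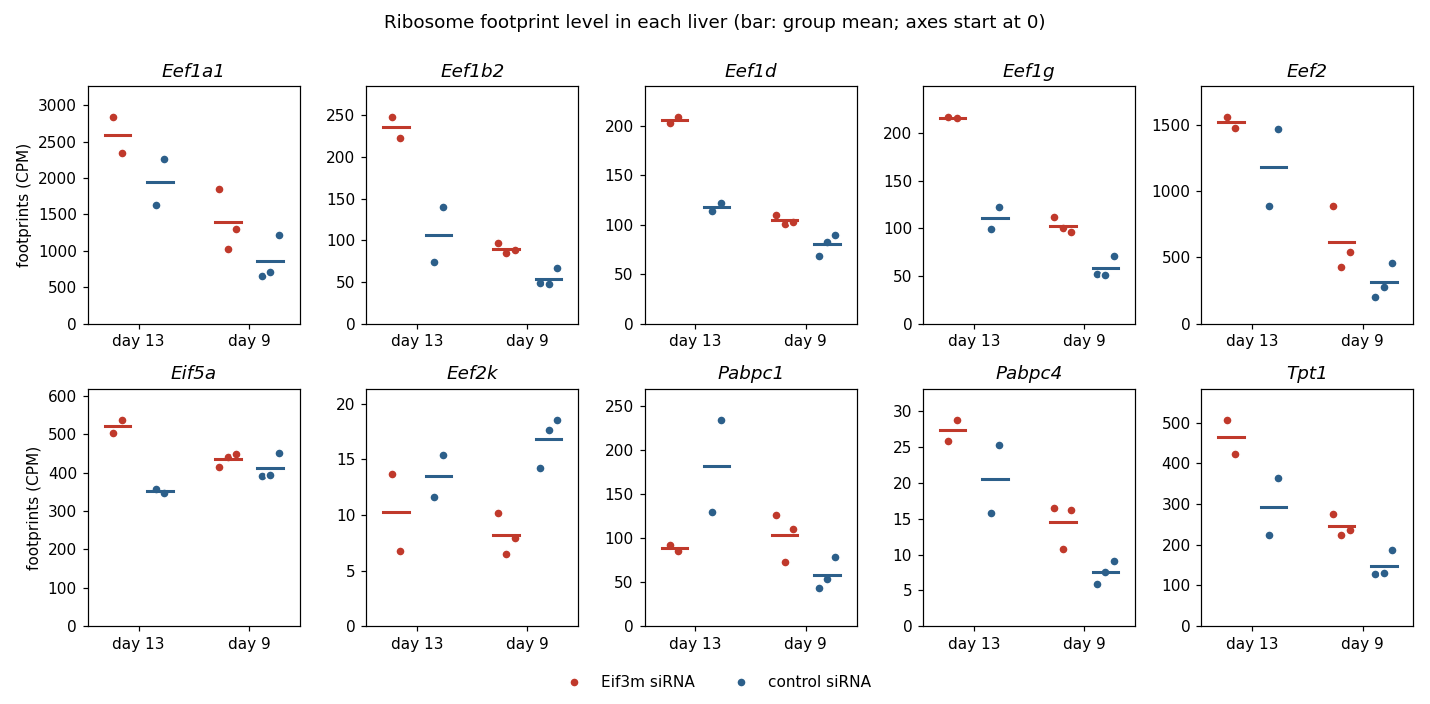
Footprint level (CPM, vertical axes from 0) of each member in each liver, with Eif3m siRNA in red left of control siRNA in blue at day 13 and at day 9, and bars for group means. Pabpc1 at day 13 is the case where both Eif3m siRNA livers, at 91.9 and 85.7 CPM, lie below both controls, at 130 and 234 CPM, although its RNA is higher.

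Pabpc4 footprints rose at day 9, and Pabpc1 footprints passed on neither day. Pabpc1 at day 13 had 91.9 and 85.7 CPM of footprints with Eif3m siRNA, against 130 and 234 CPM in controls. Both treated livers lay below both controls, and the log2 change of -1.04 (SE 0.38) did not pass in edgeR (adjusted p = 0.121) but did in DESeq2 (0.00610). In edgeR it passed with day 13 fitted alone (0.0153), without the low-count filter (8.48e-05), without day 13 control replicate 1 (0.0390) and without day 9 control replicate 3 (0.0422). At day 9 Pabpc1 had 126, 73.3 and 110 CPM with Eif3m siRNA, against 43.5, 53.8 and 78.5 CPM in controls (log2 change 0.81, SE 0.30, edgeR adjusted p = 0.110). That positive change passed in DESeq2 (0.00910) and in edgeR without day 9 Eif3m siRNA replicate 2 (0.0439), day 9 control replicate 3 (0.0244), day 13 control replicate 1 (0.0418) or day 13 control replicate 2 (0.0421). The day 9 and day 13 values of Pabpc1 thus point in opposite directions, and neither passed in the fit of both days.

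Pabpc4 had 25.9 and 28.9 CPM of footprints with Eif3m siRNA at day 13, against 15.8 and 25.3 CPM in controls (log2 change 0.42, SE 0.28, edgeR adjusted p = 0.369). At day 9 it rose, with 16.5, 10.9 and 16.3 CPM in Eif3m siRNA livers against 5.96, 7.52 and 9.10 CPM in controls (log2 change 0.93, SE 0.22, edgeR adjusted p = 0.00565), in all 16 alternatives. Tpt1 had 507 and 424 CPM with Eif3m siRNA at day 13, against 224 and 363 CPM in controls (log2 change 0.66, SE 0.22, edgeR adjusted p = 0.0614). The groups were separate, and the change passed in DESeq2 (0.0357) and in edgeR without day 13 control replicate 2 (0.0125) or day 9 control replicate 3 (0.0310). Tpt1 rose at day 9, with 274, 225 and 236 CPM in Eif3m siRNA livers against 127, 131 and 186 CPM in controls (log2 change 0.73, SE 0.18, edgeR adjusted p = 0.0115). It lost that call without Eif3m siRNA replicate 1 (edgeR adjusted p = 0.0553), control replicate 1 (0.0548) or control replicate 2 (0.0576).

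No member's footprint effect differed between the days in edgeR (0 of 10 called, with 2 at an unadjusted p below 0.05), where 0.819% of genes were called. DESeq2 called 1, Pabpc1. Its change was -1.04 at day 13 and 0.81 at day 9, a difference of -1.86 (SE 0.48, edgeR adjusted p = 0.165, DESeq2 adjusted p = 0.000435). Without day 9 control replicate 3 the edgeR adjusted p was 0.0374.

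In neighbouring genes, 2 of 26 other elongation and termination genes rose in footprints on each day, near the share of all genes. That share was 6.12% at day 13 and 6.84% at day 9. Gtpbp2 was among the genes that rose on both days (log2 change 2.01 at day 13 and 1.38 at day 9). Of 16 other poly(A)-related genes 2 rose at day 13 and 3 at day 9, including the deadenylation cofactor Btg2 on both days (0.93 and 1.10). Pabpc6 rose by 1.20 at day 9, and whether its counts share reads with Pabpc1, its paralog, was not tested. Of 19 other TOP mRNAs 3 rose at day 13 and 4 at day 9, with the ribosomal scaffold protein Rack1 at 1.29 and 0.93. Ribosomal protein footprints rose in 63 of 74 cases at day 13 and in 60 of 74 at day 9, with median log2 changes of 1.23 and 0.79.

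The footprint-to-RNA ratio asks whether ribosomes on an mRNA changed beyond its RNA. At day 13, 1 of the 10 members passed, Pabpc1, and it fell. Only 3 of 14236 genes were called (0.0211%), and Gas5, a TOP host gene of snoRNAs, fell with it (log2 change -2.22, SE 0.38, edgeR adjusted p = 0.0305). In Pabpc1 the ratio of footprint to RNA CPM was 0.0621 and 0.0732 in Eif3m siRNA livers at day 13, against 0.191 and 0.366 in controls. The highest treated value was below the lowest control. The log2 change was -2.14 (SE 0.36, edgeR adjusted p = 0.0305, DESeq2 adjusted p = 5.59e-05), a ratio 0.227 times that of controls. With each animal as a block, 12 genes were called in place of 3, and Pabpc1 stayed among them at -2.08 (SE 0.32, edgeR adjusted p = 0.0127). The Pabpc1 call was kept in 12 of 17 alternatives, with log2 changes between -2.47 and -1.53. It was lost without either day 13 Eif3m siRNA animal (edgeR adjusted p = 0.177 without replicate 1 and 0.315 without replicate 2), without day 9 Eif3m siRNA animal 1 (0.0501) or 3 (0.0954), and with day 13 fitted alone (0.0539).

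Pabpc4, its paralog, was next among the members. Its ratio was 0.831 and 0.736 with Eif3m siRNA at day 13, against 1.48 and 2.02 in controls, so the groups were separate, but the log2 change of -1.29 (SE 0.35) did not pass (edgeR adjusted p = 0.185). Eef1b2 had ratios of 0.715 and 0.659 with Eif3m siRNA, against 0.737 and 1.30 in controls (log2 change -0.67, SE 0.28, edgeR adjusted p = 0.412). Tpt1 had 0.279 and 0.287 with Eif3m siRNA, against 0.330 and 0.434 in controls (log2 change -0.54, SE 0.29, edgeR adjusted p = 0.548). In these 3 members the treated ratios were below the controls without passing the test. Eef1d lay the other way, with ratios of 13.6 and 10.0 in Eif3m siRNA livers against 8.99 and 8.11 in controls (log2 change 0.38, SE 0.26, edgeR adjusted p = 0.669). Eef2k, with 9.48 and 5.80 in Eif3m siRNA livers against 2.70 and 4.68 in controls, rests on 17 and 4 treated RNA counts (log2 change 1.23, SE 0.51, edgeR adjusted p = 0.409). Eef1a1, Eef1g, Eef2 and Eif5a overlapped between groups, with log2 changes from -0.38 to 0.14 and SEs from 0.24 to 0.59. The median change was -0.22 over the members and 0.13 over all genes, and library totals alone gave 0.34 for all genes.

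**Figure D3:**
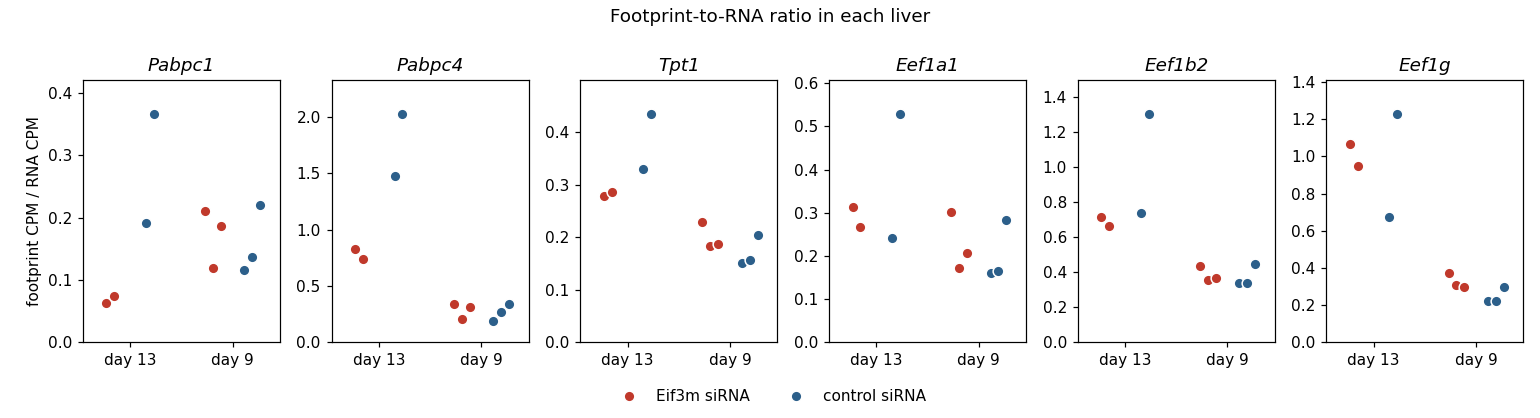
Ratio of footprint CPM to RNA CPM in each liver for 6 members (vertical axes from 0, 0.5 CPM added to both), with Eif3m siRNA in red left of control siRNA in blue at day 13 and at day 9. Pabpc1, Pabpc4, Tpt1 and Eef1b2 are separate between siRNA groups at day 13, at 0.0621 and 0.0732 against 0.191 and 0.366 in Pabpc1. These overlap at day 9, where only Eef1g is separate. Of the members drawn only Pabpc1 passed the test at day 13. Eef1d and Eef2k are not drawn, and their treated ratios were above the controls at day 13 without passing.

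At day 9 no member's ratio passed. In edgeR 0% of 14236 genes were called (0 genes, with 692 at an unadjusted p below 0.05), and DESeq2 called 4, none of them a member. With the animal as a block 8 genes were called, again no member. No member had an unadjusted p below 0.05. The log2 changes lay between -0.28 for Eef2k and 0.51 for Eef2, with SEs from 0.19 to 0.48. Pabpc1 had ratios of 0.211, 0.119 and 0.187 with Eif3m siRNA at day 9, against 0.116, 0.137 and 0.220 in controls, so the groups overlapped fully (log2 change 0.13, SE 0.29). Only Eef1g was separate, with 0.369, 0.309 and 0.296 in Eif3m siRNA livers against 0.223, 0.222 and 0.294 in controls (log2 change 0.38, SE 0.21, edgeR adjusted p = 1.00).

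The difference of the ratio effects between the days was called in 0% of genes by edgeR (0 of 14236, with 765 at an unadjusted p below 0.05, of which 3 members) and in 4 genes by DESeq2. With the animal as a block edgeR called 5 genes and no member. Pabpc1 had the largest difference of the members, -2.27 (SE 0.46, edgeR adjusted p = 0.141), and was called by DESeq2 (0.0118) and in edgeR without the low-count filter (3.79e-05). Thus its fall at day 13 and its lack of a call at day 9 were not shown to differ in the edgeR fit of all libraries. The RNA side of this difference also changes kit with the day.

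**Figure D4:**
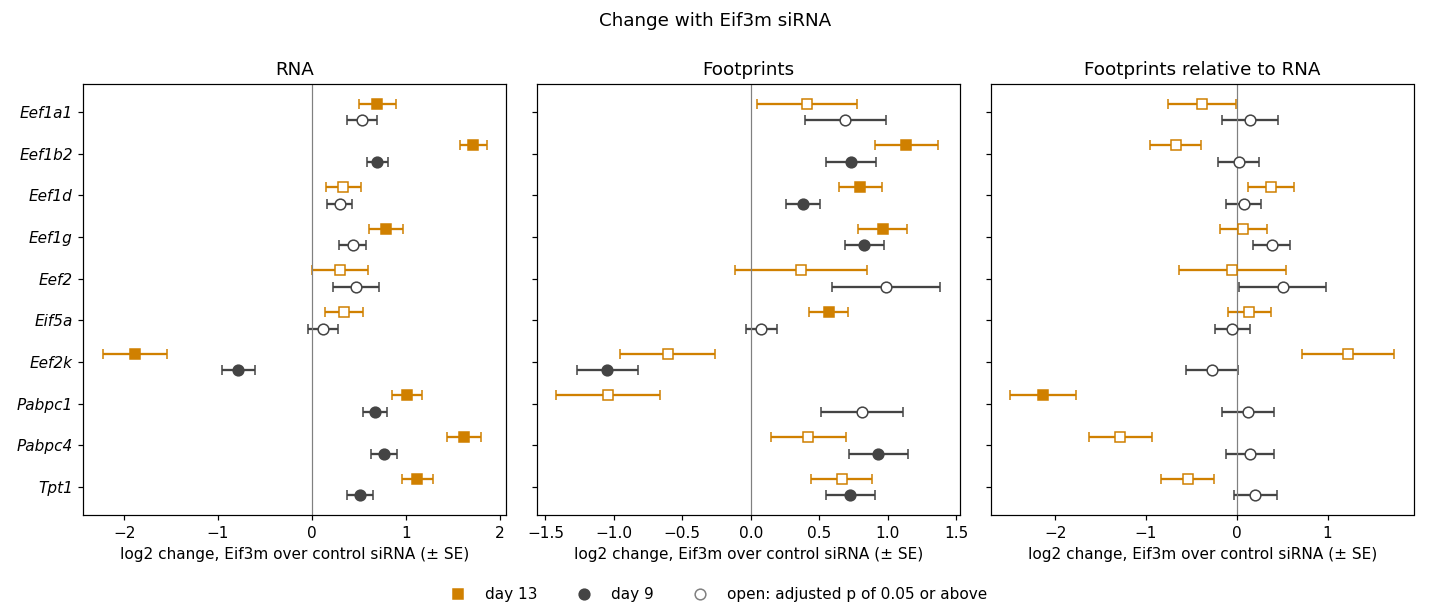
Log2 change with Eif3m siRNA over control siRNA (horizontal axes, ± SE) of each member in RNA, in footprints and in footprints relative to RNA, with day 13 as squares above day 9 as circles, filled where the edgeR adjusted p was below 0.05. Pabpc1 at day 13 lies at 1.01 in RNA, -1.04 in footprints and -2.14 in their ratio.

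In control livers the footprint-to-RNA ratios of the members ranged widely, and their rank among genes differed between the days. RNA reads come from the whole transcript and footprints from its coding part, and what that adds to the ratio of 1 gene against another was not tested. Of 7009 genes with at least 10 CPM of RNA in day 9 controls, the median ratio was 0.907. Pabpc1 had 0.156, lower than all but 2.51% of genes, Tpt1 0.172 (2.87%), Eef2 0.181 (3.11%), Eef1a1 0.203 (3.81%), Eef1g 0.247 (5.56%), Pabpc4 0.256 (5.88%) and Eef1b2 0.375 (11.6%). Eef1d at 0.832 and Eef2k at 1.04 were near the middle, and Eif5a at 2.42 was above 96.6% of genes. Neighbours in that order from Pabpc1 to Eef1a1 did not differ beyond their spread, since the 3 control livers ranged from 0.116 to 0.220 in Pabpc1, 0.150 to 0.205 in Tpt1, 0.116 to 0.261 in Eef2 and 0.159 to 0.282 in Eef1a1. Eif5a, at 2.32 to 2.59, and Eef1d, at 0.661 to 0.960, were apart from these in every control liver. In day 13 controls 6 of the 9 members with at least 10 CPM of RNA were above the middle of 6218 genes. Eef1d was above 98.3% of genes there, Eef2 above 91.7%, Eif5a above 89.4%, Pabpc4 above 82.6%, Eef1b2 above 67.5% and Eef1g above 62.4%. Tpt1 (32.2%), Eef1a1 (29.1%) and Pabpc1 (22.2%) were below it. The RNA kits of the days differ, so these ranks are given side by side.

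Footprint levels of most members were higher at day 13 than at day 9 in both siRNA groups. In controls, 7 of the 10 members rose at day 13 over day 9 (Eef1b2, Eef1d, Eef1g, Eef2, Pabpc1, Pabpc4 and Tpt1) and 0 fell, where 5.48% of genes rose and 4.88% fell. In Eif3m siRNA livers 5 rose (Eef1b2, Eef1d, Eef1g, Pabpc4 and Tpt1) and 0 fell, where 10.2% of genes rose and 8.72% fell. The animals of the days carry different series names, so day and series cannot be told apart. Markers of other cells moved in the same comparison of controls. The 3 erythroid markers rose (3 of 3, median log2 change 3.04), with sums of 783 to 2457 CPM at day 13 against 175 to 229 CPM at day 9. Of the 7 stellate cell and fibroblast markers the collagens Col1a1 (3.08) and Col3a1 (2.26) rose, of the 6 sinusoidal endothelial markers Lyve1 rose (1.51), and 3 of 7 Kupffer cell markers fell. Their part in the members' values was not tested. Eef2 had the largest change in controls, at 888 and 1473 CPM at day 13 against 204, 280 and 454 CPM at day 9 (log2 change 1.92, SE 0.44, edgeR adjusted p = 0.0400). That call was lost in 8 of 14 alternatives. Pabpc1 had 130 and 234 CPM in day 13 controls, against 43.5, 53.8 and 78.5 CPM in day 9 controls (log2 change 1.64, SE 0.33, edgeR adjusted p = 0.0179). In Eif3m siRNA livers Pabpc1 had 91.9 and 85.7 CPM at day 13, against 126, 73.3 and 110 CPM at day 9, with overlapping groups (log2 change -0.22, SE 0.34, edgeR adjusted p = 0.707).

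The control comparison leaned on a single library. Without day 13 control replicate 2, 0 of the 10 members were called in edgeR, with adjusted p of 0.313 for Eef1b2, 0.178 for Eef1d, 0.0531 for Eef1g, 0.217 for Eef2, 0.107 for Pabpc1, 0.147 for Pabpc4 and 0.165 for Tpt1. The call of Eef1d was lost without day 9 control replicate 1 (edgeR adjusted p = 0.0779), and that of Pabpc1 without day 9 control replicate 2 (0.0550). Eef2 also lost its call without day 9 control replicate 1 (0.0701) or replicate 2 (0.112), day 13 control replicate 1 (0.0730), day 9 Eif3m siRNA replicate 3 (0.0640), and day 13 Eif3m siRNA replicate 1 (0.0712) or replicate 2 (0.0701). Eef1a1 was gained without day 9 control replicate 3 (0.00113). In the Eif3m siRNA comparison the call of Pabpc4 alone was lost, without day 13 Eif3m siRNA replicate 2 (0.229). There Eef1a1 was gained without day 9 control replicate 3 (0.00814), and Eef2 without that library (0.0347) or day 9 Eif3m siRNA replicate 1 (0.0461). In Eif3m siRNA livers Eef1b2 had 248 and 223 CPM at day 13 against 96.7, 84.5 and 87.9 CPM at day 9 (log2 change 1.39, SE 0.20, edgeR adjusted p = 0.000212). Eef1g (1.08, SE 0.15), Eef1d (0.98, SE 0.14), Pabpc4 (0.94, SE 0.22) and Tpt1 (0.92, SE 0.20) followed on the same log2 scale, and Eif5a did not pass in either siRNA group (0.26 with Eif3m siRNA and -0.23 in controls).

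Over the 10 footprint libraries most members shared a profile. The Pearson correlation of a member's log2 CPM with the mean profile of all 10 was 0.92 to 0.99 for Eef1a1, Eef1b2, Eef1d, Eef1g, Eef2, Pabpc4 and Tpt1. It was 0.69 for Pabpc1, 0.36 for Eif5a and -0.24 for Eef2k. Libraries share group, day and depth, and each member is part of the mean, so these values are a description. Among the 5 genes outside the members with the profile most like that mean, of 8707 with at least 5 CPM, were Gm6548 (r = 0.99), LOC100861738 (0.98), Rpl31 (0.98) and Gm34865 (0.97). RefSeq lists Gm6548 as a transcribed pseudogene and LOC100861738 as a pseudogene. Counts of each member were not whole in 6 (Eef2k) to 19 (Pabpc4) of the 20 libraries, as happens where a read is divided between matching places, so values of members with near-identical copies are uncertain to that extent.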

How the data were processed

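The authors deposited 1 table of expected counts per gene symbol, with 1 column for each of the 20 RNA-seq and footprint libraries of 10 livers. Per the labels' protocols, RNA was purified with Qiagen RNeasy, and the submitters' processing notes name cutadapt, Bowtie and Bowtie2. Tool versions, the build of the genome and how reads were counted were not given in the sources used here. Fractional entries made up 44.3% of those above 0, and counts were rounded before testing.

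Samples were grouped by siRNA, day and assay from the labels. R 4.3.3 with edgeR 4.0.16 was used, with RNA and footprint libraries apart (filterByExpr, TMM scaling, robust quasi-likelihood F tests). The 4 groups of an assay entered 1 fit, so both days share the estimate of spread. A model of all 20 libraries tested the footprint-to-RNA ratio as an interaction of assay and siRNA. P-values were adjusted over all genes tested (Benjamini-Hochberg, threshold 0.05, two-sided), in 11 comparisons. To obtain CPM, counts were divided by the library total after multiplying that total by its TMM factor, and ratios had 0.5 CPM added above and below. Replicates of a group had Pearson r from 0.981 to 0.998 over 16 pairs on log CPM. They are separate mice. An exact permutation test of 3 against 3 cannot go below 0.1, so none was used. If only 1 animal of a group remained after a library was left out, its spread was taken to be that of the other groups.

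The following alternatives were tried: size factors of DESeq2 within edgeR, scaling by library totals only, keeping every gene with at least 1 count, DESeq2 1.42.0 itself, separate fits of each day, a replicate or animal block, joint TMM of both assays, and leaving out each library or animal. RNA and footprint libraries of a number come from the same animal by the labels (r of their deviations from 0.073 to 0.293). The fits were checked on simulated data. The members, lists and tests were chosen with earlier results of these data known. All members are named, and of each wider list at most 4 called genes with the smallest adjusted p per comparison. One gene that this rule or the profile comparison picks is not reported here.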

Additional observations from a re-analysis of the deposited data

Results flagged for a closer look

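The RNA effect of Eif3m siRNA differed between the days, by the test of that difference, in 1 member and in 6 named genes of the wider lists. Eef1b2 had a difference (day 13 minus day 9, log2) of 1.02 (SE 0.18, edgeR adjusted p = 0.0252). Among other TOP mRNAs it was 1.41 in Gas5 (edgeR adjusted p = 0.0467) and 1.01 in Npm1 (0.0471). Among ribosomal protein genes it was 1.16 in Rps6 (0.0189), 1.08 in Rpl36a (0.0245), 1.02 in Rpl22 (0.0258) and 1.04 in Rpl3 (0.0283). All 7 kept a positive difference in each of 15 alternatives, and between 5 (Rps6) and 10 (Gas5) of these ended the call. RNA kit and day cannot be told apart in these values. In footprints, Vim, a TOP mRNA for an intermediate filament protein, had a difference of -1.32 (SE 0.26, edgeR adjusted p = 0.0182), with 5 of 15 alternatives ending the call. Vim is also expressed by fibroblasts and endothelial cells. In day 13 footprints the 7 stellate and fibroblast markers summed to 563 to 661 CPM with Eif3m siRNA against 817 to 846 in controls. At day 9 they summed to 602 to 670 against 447 to 509 CPM. Of these 7, 2 fell at day 13 and 2 rose at day 9. The 6 sinusoidal endothelial markers overlapped between siRNA groups, at 461 to 545 against 501 to 525 CPM at day 13. At day 9 they had 470 to 592 against 470 to 515 CPM. The part of these markers in the Vim value was not tested.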

How the results depend on the processing

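Of 1719 values of single members under the alternatives, 1532 kept their call or stayed uncalled within 1 SE, 73 lost a call, 55 gained one and 59 moved by 1 SE or more without a call. The sign changed in 41 of the 1167 values whose member was not called, with none called after the change, and in 0 of the 552 whose member was called. In RNA at day 9, called members numbered 9 with the day fitted alone in place of 5, and 1 to 8 with a library left out. All called genes there (932) became 1583 without the low-count filter, 1636 in DESeq2, 3445 with the day alone and 292 to 2367 with a library left out. In RNA at day 13, all called genes (2625) became 968 with the day alone and 1336 to 4266 with a library left out. For the RNA difference between days, members called (1) became 4 in DESeq2, 0 with the replicate block and 0 to 4 with a library left out, and all genes (202) became 1034 without the filter, 752 in DESeq2, 61 with the replicate block and 0 to 2065 with a library left out. In footprints at day 9, members called (6) ranged from 3 to 8, and all genes (1800) became 2742 with library totals alone and 1129 to 2179 with a library left out. At day 13, all genes (1515) became 2355 with library totals alone and 429 to 1875 with a library left out. For their difference between days, members called (0) became 1 without the filter, 1 in DESeq2 and 0 to 1 with a library left out, and all genes (100) became 242 without the filter, 62 with the replicate block and 7 to 172 with a library left out. Day 13 against day 9 gave 0 to 8 called members and 322 to 1658 genes in controls (7 and 1265 with all libraries), and 343 to 2951 genes with Eif3m siRNA (2313).

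For the ratio at day 9, all called genes (0) became 18 without the filter, 4 in DESeq2, 4 with the day alone, 8 with the replicate block by animal and 0 to 5 with an animal left out. At day 13, members called (1) became 0 with the day alone and 0 to 1 with an animal left out, and all genes (3) became 5 with DESeq2 size factors, 63 with library totals alone, 145 without the filter, 32 in DESeq2, 1 with the day alone, 12 with the replicate block by animal and 0 to 438 with an animal left out. For the difference between days, members called (0) became 1 without the filter and 1 in DESeq2, and all genes (0) became 7, 4, 5 with the replicate block by animal, and 0 to 59 with an animal left out. The causes were not tested. Eif3m siRNA and control livers of the same replicate number had r of deviations from -0.11 to 0.22. Libraries of the same animal had 0.073 to 0.293, a range that overlaps, so these r cannot decide whether the numbers pair livers. The replicate block ended the day 9 RNA call of Tpt1 (edgeR adjusted p = 0.102). Among the 7 members whose control RNA differed under 4-fold between days, a restriction chosen after seeing the data, 6 were called in RNA at day 13 in place of 7, 1 in the RNA difference, and 1 in the ratio at day 13. Footprint depth at day 13, down to 1635290 counts a library, limits members with few counts, such as Eef2k and Pabpc4.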
